A study of Rattus norvegicus with 20 samples.

Results

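The highest and the lowest of 3 celecoxib concentrations, 25-fold apart, were compared after 24 h in primary cultures of neonatal rat heart cells. The comparison takes the arrays whose titles give reference concentration 1 for 24 h (replicates 1 to 3) against those giving 1/25 for 24 h (replicates 1 to 3), which are 6 of the 20 arrays of the study. Each array measured the total RNA of 1 sample in a single colour, Cy3. The cultures came from heart tissue of neonates, grew for 1 day in DMEM medium and then received the drug.

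The group called celecoxib 1 here holds cells given the full reference concentration for 24 h, and the group called celecoxib 1/25 holds cells given 1/25 of it for the same time. Both groups were treated, so the comparison sets a high dose against a low dose and not drug against no drug. The absolute concentration, the vehicle, and the strain and number of animals are not given in the sources used here. Further arrays are used beside them: 3 arrays of celecoxib 1/5 at 24 h, which enter the fit, and the arrays of celecoxib 1 and 1/25 at 6 h (3 each). The 2 untreated arrays, for which no time is labelled, are quoted where a gene's level without the drug helps to place it. The labels number the replicates but do not say that they were separate cultures, so the p-values below rest on a spread between arrays that may be partly or wholly technical.

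Celecoxib blocks cyclo-oxygenase 2, the inducible enzyme encoded by Ptgs2 that turns arachidonic acid into the precursor of prostaglandins. Cells under amino acid shortage or endoplasmic reticulum stress phosphorylate the translation factor eIF2, which slows protein synthesis but lets the transcription factor ATF4 be made. ATF4 then drives genes for amino acid transport and synthesis, for charging of tRNA and for feedback on the pathway, a programme called the integrated stress response.

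Levels are given as log2 of the scanner software's processed signal minus log2 of that array's 75th percentile, so a level of 0 is a signal at the 75th percentile of the array. Differences are the mean level at celecoxib 1 minus the mean level at 1/25. At celecoxib 1, between 72.83% and 74.44% of probes per array were well above background, against 65.28% to 73.43% at 1/25. Pairs of 24 h arrays of the same group correlated at 0.966 on average and pairs of different groups at 0.96. All 17 cardiomyocyte markers found on the array, of 18 listed, were well above background on 3 of 3 arrays of each group. Their median level was 1.04 at celecoxib 1 and 1.52 at 1/25. Fibroblast markers were similarly bright, at 1.45 and 1.41. Heart muscle cell genes were thus expressed, but these levels do not give the share of muscle cells in the cultures. Actc1 and Tnnt2 were saturated on 3 and 2 arrays of celecoxib 1, and both on 3 arrays of 1/25. Replicate 1 of celecoxib 1 stood lower in the cardiomyocyte markers than the other arrays of both groups. This was not particular to them. Its summed linear signal was also the lowest for ribosomal protein genes (165, against 218 to 258) and the respiratory chain (97.6, against 110 to 126). Its 75th percentile, to which levels are scaled, was the highest of both groups (13664, against 10011 to 12659). The part that scaling has in this was not tested. The summed linear signal of the 17 markers, in units of the array's 75th percentile, was 36.9, 50.6 and 59.7 at celecoxib 1, against 53.7, 55 and 43.4 at 1/25. The arrays of celecoxib 1 lay on slides 2 and 3 and those of 1/25 on slide 4, so slide and concentration cannot be told apart within these 6 arrays, and all 9 arrays of 24 h carry the same scan day.

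No gene passed the test between celecoxib 1 and 1/25 at 24 h. In limma, 0 of 25091 genes (0%) had an adjusted p below 0.05, and the lowest adjusted p was 0.0835. At an unadjusted p below 0.05 there were 1960 genes (7.81%), of which 954 read higher at celecoxib 1 (3.8%) and 1006 read lower (4.01%). The sign of the difference was positive in 54.1% of all genes tested, with a median of 0.03, but in 47% with a median of -0.03 where no filter on dim probes was applied. Shares of all genes below refer to the genes tested. Groups that did not overlap, with all 3 arrays of celecoxib 1 above all 3 of 1/25, were seen in 6.72% of genes, and the opposite in 6.4%. Other fits in limma passed 2 genes with all 20 arrays and a term for scan day, 2 with the replicate number as a block and 1 after quantile normalization. In these bulk cultures a lower signal from fewer cells of a type and from less RNA per cell cannot be told apart.

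The absence of passing genes has a measured precision. The median standard error of a difference was 0.256 and the median 95% interval reached 0.57 to either side. That interval lay within 1 log2 unit of 0, a 2-fold change, for 69.3% of genes and within 2 units for 97.2%. In simulated data of the same size, the test recovered 0% of 200 genes changed by 1 log2 unit, 89.5% of those changed by 2 and 99% of those changed by 3. The simulated noise, here and below, was normal and independent between arrays and genes, with each gene's fitted variance. It held no slide effect, saturation or detection floor, so recovery on the real arrays may be lower. Measured differences over 1 unit in size were found in 2.38% of genes.

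**Figure D1:**
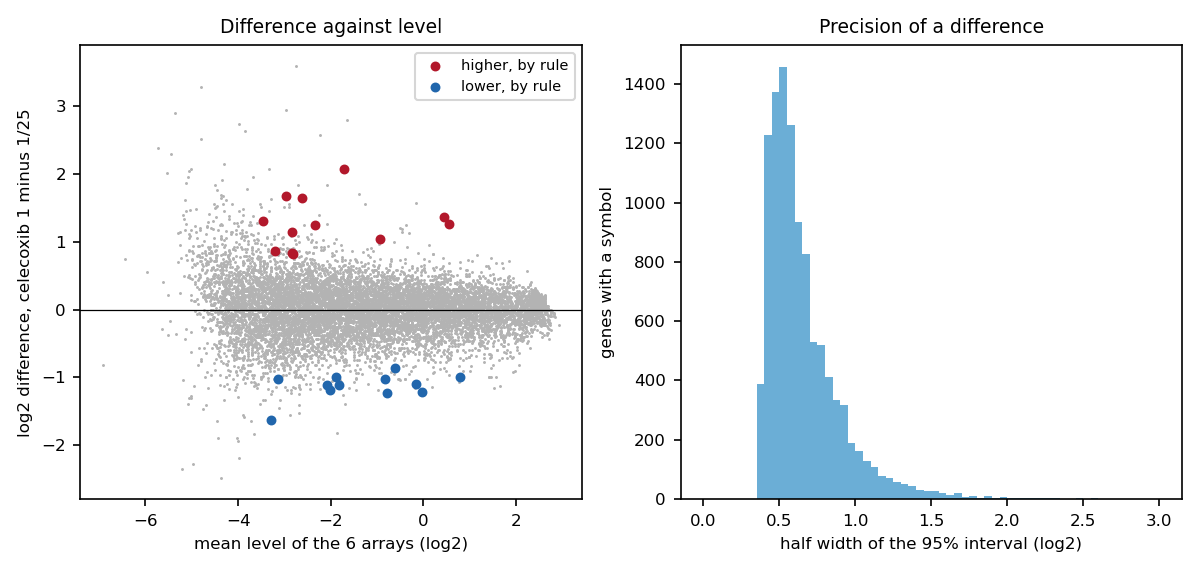
The left panel plots, for 10680 genes with a symbol, the log2 difference (celecoxib 1 minus 1/25 at 24 h) against the mean log2 level of the 6 arrays, with the genes named by rule in red (12 higher) and blue (12 lower). The right panel counts these genes by how far their 95% interval reaches to either side, in log2 units, where the median over all 25091 genes is 0.57.

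Among the drug's own targets, neither cyclo-oxygenase gene differed beyond the spread between arrays at 24 h. Ptgs2, the drug's main target, read -3.72, -4.17 and -3.23 at celecoxib 1, against -4.24, -4.23 and -3.90 at 1/25. The groups overlap, and the difference was 0.42 ± 0.26 (SE), with a 95% interval of -0.16 to 0.99 and an adjusted p of 0.761 in limma. The untreated arrays read -3.87 and -2.39, so all of these are low signals, and 2 of 3 arrays at 1/25 had it well above background. At 6 h the difference of Ptgs2 had the other sign, -0.82 ± 0.37, with an adjusted p of 0.887 in limma. Ptgs1, the constitutive enzyme, read 1.5, 1.76 and 1.63 at celecoxib 1, against 1.48, 1.39 and 1.47 at 1/25. Every celecoxib 1 value lay above every 1/25 value, but by a narrow margin: the difference was 0.18 ± 0.17, with an interval of -0.20 to 0.57.

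The wider prostanoid list gave 9 higher and 7 lower of 16 tested genes, with a median of 0.09. Its 10 enzymes had a median of 0.16 and its 6 receptors and transporter genes -0.12. The receptor gene for prostaglandin D2, Ptgdr, read -3.66, -3.20 and -3.44 at celecoxib 1, against -3.18, -1.58 and -2.98 at 1/25, and 1 array at 1/25 is far above the rest. Its difference was -0.85 ± 0.39 at 24 h and -1.47 ± 0.46 at 6 h. Ptges, the inducible prostaglandin E synthase, had a difference of -0.38 ± 0.24.

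In the fit of the 9 arrays, the gene list with the highest median of 36 was that of ATF4 and the integrated stress response. Of its 39 genes 38 were on the array and 33 were tested. At celecoxib 1, 27 of these 33 read higher and 6 lower (81.8% higher, against 54.1% of all genes), with a median difference of 0.30 against 0.03 for all genes. None passed the adjusted test. At an unadjusted p below 0.05, 3 read higher (Slc7a5, Atf3 and Cebpg) and 0 lower, against 3.8% and 4.01% of all genes. In 7 the arrays of celecoxib 1 lay above those of 1/25 without overlap, with 0 the other way round, against 6.72% and 6.4% of all genes. Single differences ran from -0.30 to 1.37.

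Promoters of the list and of the aminoacyl-tRNA synthetases are shown because ATF4 is known to bind, with a C/EBP partner, the composite site TGATGNAA. Sequences are RefSeq's, build GRCr8, in windows of 300 bases that hold the gene's start, written 5′ to 3′ on the gene's strand. Capitals mark TGATGNAA on either strand or, in Ppp1r15a, the cyclic AMP response element TGACGTCA. Trib3 lies at chr3:161275484-161275783 (minus strand), Herpud1 at chr19:10614658-10614957 (minus), Pycr1 at chr10:106420763-106421062 (minus), Yars1 at chr5:146819913-146820212 (plus), Tars1 at chr2:62114753-62115052 (minus) and Ppp1r15a at chr1:105139547-105139846 (minus).
Trib3: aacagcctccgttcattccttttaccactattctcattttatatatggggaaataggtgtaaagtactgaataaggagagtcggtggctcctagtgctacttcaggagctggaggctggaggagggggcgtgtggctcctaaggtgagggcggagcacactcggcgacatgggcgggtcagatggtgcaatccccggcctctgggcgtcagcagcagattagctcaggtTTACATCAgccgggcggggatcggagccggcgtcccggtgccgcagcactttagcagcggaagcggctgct
Herpud1: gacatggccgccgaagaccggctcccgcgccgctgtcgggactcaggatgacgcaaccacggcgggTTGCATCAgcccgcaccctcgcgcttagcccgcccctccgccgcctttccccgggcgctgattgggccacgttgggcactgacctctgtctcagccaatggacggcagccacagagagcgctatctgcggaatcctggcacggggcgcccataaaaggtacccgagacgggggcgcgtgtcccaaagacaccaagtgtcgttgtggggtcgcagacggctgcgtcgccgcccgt
Pycr1: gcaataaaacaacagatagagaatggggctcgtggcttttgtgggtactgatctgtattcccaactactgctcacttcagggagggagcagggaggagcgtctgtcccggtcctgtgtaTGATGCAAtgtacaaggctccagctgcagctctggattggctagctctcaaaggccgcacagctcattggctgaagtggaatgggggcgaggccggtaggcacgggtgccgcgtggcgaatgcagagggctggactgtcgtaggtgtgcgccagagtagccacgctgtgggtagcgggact
Yars1: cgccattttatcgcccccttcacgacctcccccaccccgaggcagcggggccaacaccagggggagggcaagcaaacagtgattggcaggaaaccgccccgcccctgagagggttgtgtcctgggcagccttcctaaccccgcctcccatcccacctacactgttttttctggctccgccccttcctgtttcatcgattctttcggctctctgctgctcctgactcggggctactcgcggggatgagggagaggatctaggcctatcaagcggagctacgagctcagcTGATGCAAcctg
Tars1: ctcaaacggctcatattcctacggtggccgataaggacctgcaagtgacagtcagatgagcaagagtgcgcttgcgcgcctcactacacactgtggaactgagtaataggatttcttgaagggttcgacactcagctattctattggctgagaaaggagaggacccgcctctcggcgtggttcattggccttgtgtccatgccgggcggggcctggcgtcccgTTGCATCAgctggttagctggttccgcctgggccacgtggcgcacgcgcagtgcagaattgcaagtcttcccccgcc
Ppp1r15a: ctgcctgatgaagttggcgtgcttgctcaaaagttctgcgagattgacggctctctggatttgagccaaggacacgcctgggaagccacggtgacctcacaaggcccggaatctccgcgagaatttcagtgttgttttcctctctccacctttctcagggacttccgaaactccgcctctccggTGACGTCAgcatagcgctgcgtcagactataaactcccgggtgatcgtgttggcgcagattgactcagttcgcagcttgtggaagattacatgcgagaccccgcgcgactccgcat

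TGATGNAA on either strand was found in 1048 of 27457 promoters of the same length (3.82%). It was found in 8 of 34 promoters matched for the ATF4 list (23.5%) and in 7 of 17 matched for the tRNA synthetases (41.2%). Both lists are known to hold ATF4 targets, and these shares come from sequence alone. They would be the same whatever the arrays read, so they say nothing about a response in these cells. TGACGTCA was found in 1.91% of all promoters, in 1 of the 34 and in 0 of the 17. The first base of the match lies at -21 in Trib3, -184 in Herpud1, -131 in Pycr1, 39 in Yars1, -27 in Tars1 and -66 in Ppp1r15a, counted from the gene's start as 1. Members holding the composite site did not all read higher: the 24 h difference was 0.44 for Herpud1, 0.36 for Pycr1, 0.32 for Trib3, 0.30 for Slc1a4, 0.20 for Slc7a1, 0.07 for Chac1 and -0.30 for Nupr1. Fgf21 holds it too and was too dim to be tested. Of the 7 synthetase genes with the site, Tars1 differed by 0.54, Yars1 by 0.52, Aars1 by 0.34, Cars1 by 0.33, Nars1 by 0.07 and Iars1 by -0.19, and Mars1 was not tested. A match is only a stretch of letters in this window. The promoters of Slc7a5 and Cebpg, both matched, held neither motif here.

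Amino acid transporters held the single widest difference of the list. Slc7a5, the light chain of the LAT1 transporter for large neutral amino acids, read 1.07, 1.49 and 0.83 at celecoxib 1, against 0.24, -0.52 and -0.43 at 1/25. All 3 arrays of celecoxib 1 stood above all 3 of 1/25, and the difference was 1.37 ± 0.25, a 2.58-fold ratio with an adjusted p of 0.253 in limma. The arrays of celecoxib 1/5 read -0.37, -0.22 and -0.45, at the level of 1/25. The untreated arrays read 2.04 and 0.99, which is as high as celecoxib 1 or higher. Slc3a2, the heavy chain that pairs with it, read 1.23, 1.39 and 1.02 at celecoxib 1, against 0.52, 0.65 and 0.71 at 1/25, also without overlap, for a difference of 0.59 ± 0.30. Of the 8 transporters tested 6 read higher, with a median of 0.32. Slc7a11, which exchanges cystine for glutamate, differed by 0.33 ± 0.35 at 24 h and by 1.77 ± 0.41 at 6 h, and was well above background on 1 of 3 arrays of 1/25 at 24 h.

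The stress transcription factors came next. Atf3, a repressor induced by many stresses, read -0.24, -0.24 and -0.74 at celecoxib 1, against -1.24, -1.49 and -1.62 at 1/25. The groups do not overlap, the difference was 1.04 ± 0.21 (2.06-fold) and the adjusted p in limma was 0.296. Celecoxib 1/5 read -1.25, -1.10 and -1.46, near the level of 1/25. The untreated arrays read -1.33 and -0.93, the second of them above every 1/25 array and below every celecoxib 1 array. Cebpg, a partner of ATF4, read -0.36, -0.57 and -0.56 at celecoxib 1, against -0.91, -0.80 and -1.28 at 1/25, a difference of 0.50 ± 0.19. Ddit3, which encodes CHOP, read -0.52, -0.23 and -0.33 at celecoxib 1, against -0.99, -0.61 and -0.82 at 1/25, a difference of 0.45 ± 0.27. Atf4 and Atf5 were saturated on 3 of 3 arrays of celecoxib 1 and on 3 of 3 of 1/25, so their differences of 0.08 and 0.11 are compressed. Nupr1, a small stress-induced chromatin protein, had the lowest value of the list at -0.30 ± 0.27.

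All 6 feedback regulators read higher at celecoxib 1, with a median of 0.33. Trib3, a pseudokinase that binds ATF4, read 1.98, 2.37 and 1.94 at celecoxib 1, against 1.76, 1.79 and 1.79 at 1/25, without overlap and with a difference of 0.32 ± 0.18. Ppp1r15a, the phosphatase subunit that reverses eIF2 phosphorylation, differed by 0.50 ± 0.28, and Chac1, which breaks down glutathione, by 0.07 ± 0.18. The amino acid synthesis genes had 6 of 8 higher and a median of 0.17. Aldh18a1 and Pycr1, both of proline synthesis, differed by 0.48 ± 0.23 and 0.36 ± 0.21, while Asns, the asparagine synthetase, differed by 0.03 ± 0.24 and Phgdh, the first enzyme of serine synthesis, by -0.17 ± 0.32. Of the secreted factors and others 4 of 5 read higher, led by Herpud1, a membrane protein of endoplasmic reticulum-associated degradation, at 0.44 ± 0.20 with 1 array of celecoxib 1 saturated.

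The ATF4 list followed no even gradient over the 3 concentrations. Its mean level was -0.47, -0.65 and -0.56 on the 3 arrays of 1/25, -0.67, -0.41 and -0.52 on those of 1/5, and -0.19, -0.13 and -0.51 on those of celecoxib 1. Replicate 3 of celecoxib 1 thus lay among the arrays of the lower doses. Celecoxib 1 read above 1/5 in 25 of 33 genes (median 0.30), while 1/5 read above 1/25 in 16 of 33 (median -0.02). The mean of 1/5 lay between those of 1/25 and 1 in 8 of 33 genes, against 27.3% of all genes. Without replicate 2 of celecoxib 1 the list's median was 0.14, and without replicate 1 it was 0.18. Over 23 ways of fitting it stayed between 0.14 and 0.37, with 66.7% to 87.9% of the tested genes higher. At 6 h 22 of the 33 read higher at celecoxib 1 than at 1/25, with a median of 0.16.

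**Figure D2:**
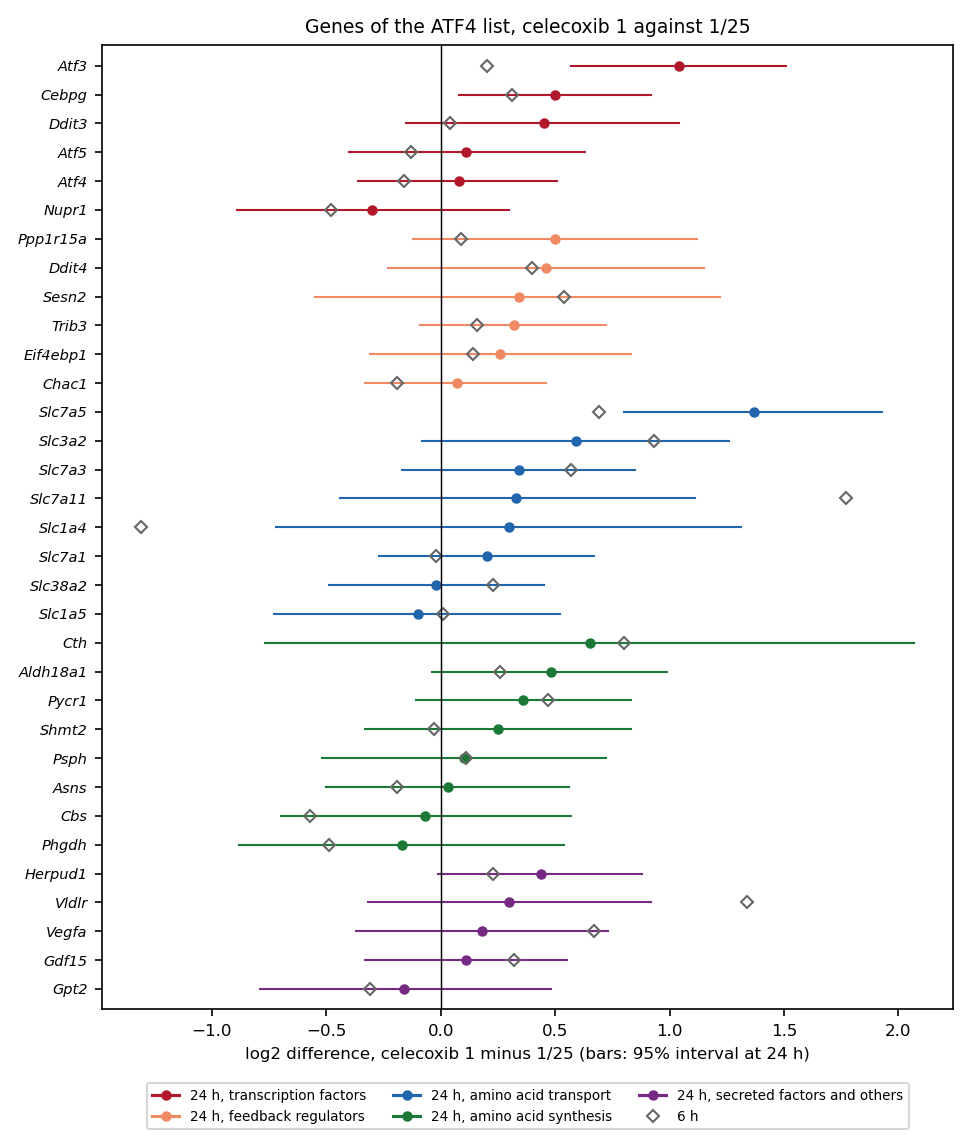
Log2 difference of celecoxib 1 minus 1/25 at 24 h for the 33 tested genes of the ATF4 list (filled circles, coloured by role, with 95% intervals) and at 6 h (open diamonds). At 24 h 27 of the circles lie above 0, and the intervals of Slc7a5, Atf3 and Cebpg lie wholly above it.

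The cytosolic aminoacyl-tRNA synthetases, which load amino acids onto their tRNA and include many ATF4 targets, had the next highest median, 0.28, with 13 of 19 tested features higher. Glycyl-tRNA synthetase counts as 2 of these, since the features named Gars and Gars1 were kept apart. Yars1, the tyrosyl enzyme, read -0.11, -0.16 and -0.50 at celecoxib 1, against -0.58, -0.98 and -0.77 at 1/25, without overlap and with a difference of 0.52 ± 0.23. Tars1, the threonyl enzyme, read -2.27, -2.30 and -2.18 at celecoxib 1, against -3.10, -2.42 and -2.84 at 1/25. Farsb, a subunit of the phenylalanyl enzyme, differed by 0.55 ± 0.24 with overlapping groups, and Gars by 0.55 ± 0.27. Lars1, the leucyl enzyme, was the lowest at -0.26 ± 0.21. With slide as a fixed term the median was -0.08 and 9 of 19 features read higher. That fit gives replicate 1 of celecoxib 1, alone on its slide at 24 h, no weight in the difference. Leaving out 1 array moved the median to between 0.12 and 0.40. At 6 h 11 of 19 read higher, with a median of 0.14.

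Other stress programmes did not share this lean. Endoplasmic reticulum chaperones and sensors had 10 of 22 genes higher and a median of -0.01. Edem1, which sorts misfolded glycoproteins for degradation, read 1.76, 1.56 and 1.95 at celecoxib 1, against 2.47, 2.29 and 2.41 at 1/25, a difference of -0.64 ± 0.18 with 2 of its 3 probes agreeing in sign and a mean over all probes of -0.09. Canx, the lectin chaperone calnexin, read -1.83, -2.14 and -1.91 at celecoxib 1, against -2.86, -2.48 and -2.40 at 1/25 (0.62 ± 0.20), and P4hb, a protein disulphide isomerase, differed by -0.86 ± 0.29. In the list 2 genes lay apart without overlap as lower (Edem1 and P4hb) and 2 as higher (Canx and Ero1a, at 0.20 ± 0.18), against 6.4% and 6.72% of all genes. Hspa5, the main chaperone of the compartment, differed by -0.48 ± 0.35. Cytosolic heat shock genes had 9 of 16 higher (median 0.07), with Dnaja1 at -0.48 ± 0.21, Cryab, saturated on all 6 arrays, at 0.32 ± 0.22, and Hspa8 at 0.31 ± 0.22 with 2 of its 4 probes of that sign. NRF2 targets had 14 of 23 higher (median 0.06), with Hmox1, the haem oxygenase, at 0.39 ± 0.18, Osgin1 at -0.68 ± 0.30 and Ftl1, saturated on 2 arrays of celecoxib 1 and 3 of 1/25, at -0.37 ± 0.22.

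**Figure D3:**
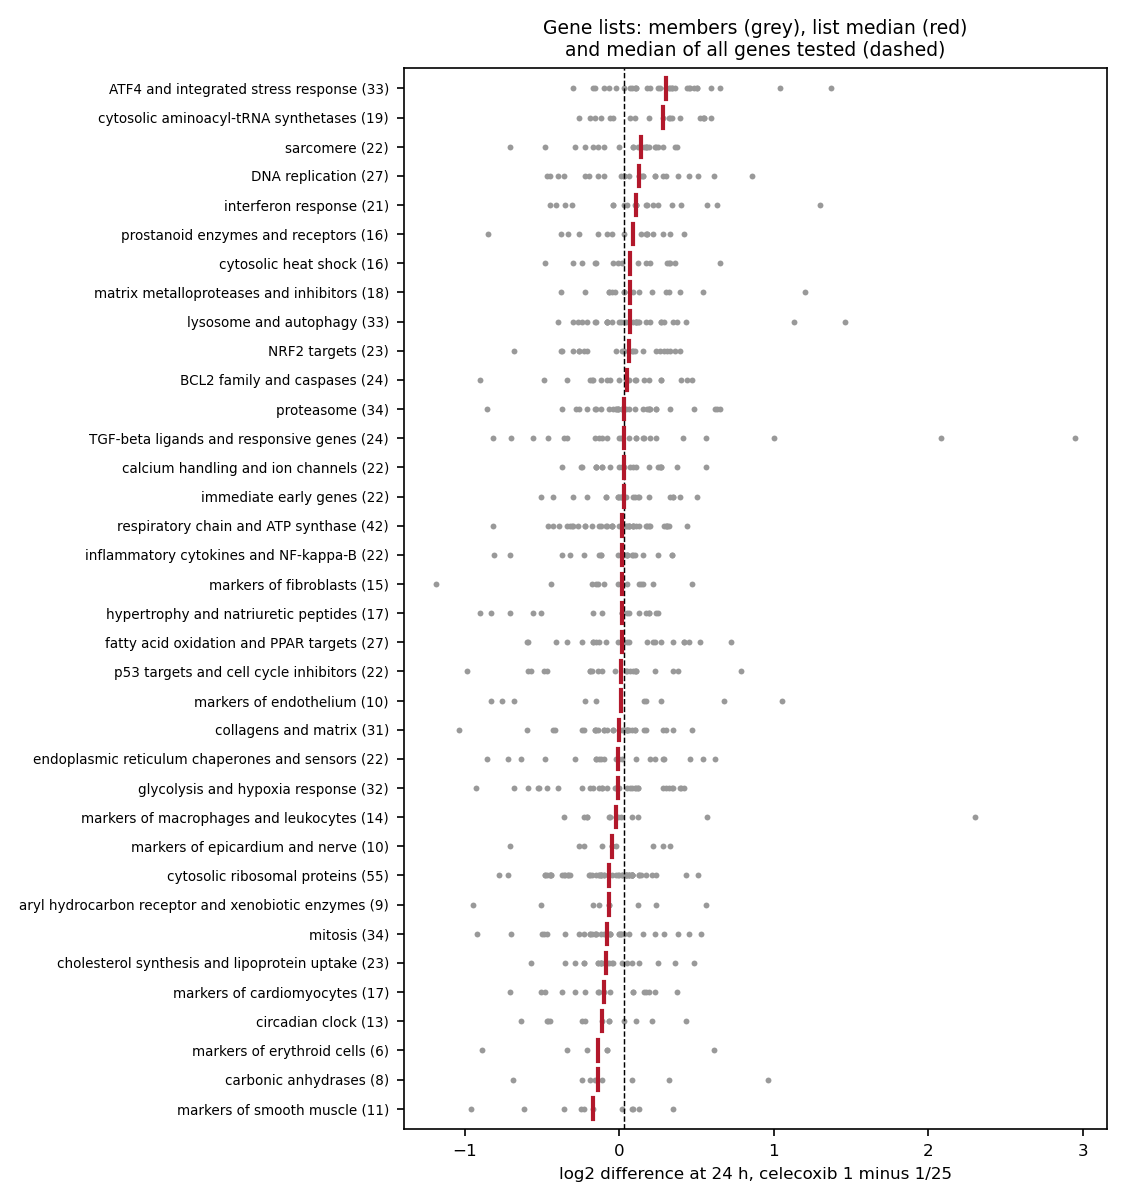
Log2 difference of celecoxib 1 minus 1/25 at 24 h for every tested member (grey) of 36 gene lists, with the list's median (red), the number tested in brackets and the median of all genes, 0.03 (dashed). The ATF4 list (0.30) and the tRNA synthetases (0.28) have the highest medians, and smooth muscle markers (-0.17) the lowest.

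None of the 12 genes named for the smallest p among those reading higher passed the test. The rule took genes well above background on all 6 arrays whose groups do not overlap, of which 528 read higher and 679 lower, so non-overlap is part of the choice. Tbc1d25, a Rab GTPase-activating protein of autophagosome maturation, read -0.53, -0.88 and -0.63 at celecoxib 1, against -3.25, -2.53 and -2.47 at 1/25. That is a difference of 2.07 ± 0.35 (4.2-fold, 95% interval 1.28 to 2.86), with an adjusted p of 0.23 in limma. Celecoxib 1/5 read -4.16, -2.71 and -3.35, and the untreated arrays -1.69 and -2.95. Ambra1, a regulator of autophagy through Beclin 1, read -2.03, -1.42 and -1.69 at celecoxib 1, against -3.04, -2.72 and -3.11 at 1/25, and the untreated arrays stood above both at -0.79 and -0.77. Its difference of 1.25 ± 0.26 was 0.64 with slide as a fixed term. Rsad2, the interferon-induced antiviral protein viperin, read -2.94, -2.95 and -2.52 at celecoxib 1, against -4.06, -3.60 and -4.66 at 1/25, and differed by 1.30 ± 0.29.

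Both Slc7a5 and Atf3 belong to the same 12. Muscle genes among them were Mybpc2, the fast skeletal myosin-binding protein C, at 1.64 ± 0.32, and Xirp2, an actin-binding protein of striated muscle, at 0.82 ± 0.20. Abr differed by 1.15 ± 0.23. Tsnax, the partner of translin, differed by 1.67 ± 0.35, Marf1, an RNA-binding regulator of meiosis, by 1.26 ± 0.29 with 1 of its 2 probes of that sign, Nabp1, a single-stranded DNA binding protein, by 0.83 ± 0.20, and C10h17orf75 by 0.87 ± 0.21. Adjusted p in limma over the 12 ran from 0.23 to 0.389. With slide as a fixed term the difference was 0.42 for Mybpc2, 0.49 for Xirp2, 0.67 for Atf3 and 0.78 for Marf1, and with the mean of all probes it was 0.60 for Marf1.

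Among genes reading lower that were detected on all 6 arrays and did not overlap, Top3a, a DNA topoisomerase, had the smallest p. It read -0.91, -0.63 and -0.40 at celecoxib 1, against 0.42, 0.68 and 0.63 at 1/25, a difference of -1.22 ± 0.22 with an adjusted p of 0.253 in limma. Celecoxib 1/5 read 0.31, 0.53 and 0.92, at the level of 1/25, and the untreated arrays 0.09 and -0.64. With slide as a fixed term its difference was -0.60. Sema7a, a membrane-anchored semaphorin, read -3.66, -4.69 and -3.94 at celecoxib 1, against -1.95, -2.49 and -2.96 at 1/25. It had the widest difference of those lower, -1.63 ± 0.33 (a ratio of 0.323), and the 1/5 arrays read -3.68, -3.74 and -3.24, below all of 1/25 and reaching into the range of celecoxib 1. Gpc4, a cell surface glypican, read -2.59, -2.49 and -2.84 at celecoxib 1, against -1.21, -1.46 and -1.93 at 1/25, and 1/5 read like celecoxib 1 at -2.57, -2.81 and -2.37. At 6 h the difference of Gpc4 had the other sign, 0.73 ± 0.39.

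Ptdss2, a phosphatidylserine synthase, differed by -0.86 ± 0.17, and Pnrc1, a nuclear receptor coactivator, by -1.03 ± 0.22. At 6 h both had the other sign, Ptdss2 at 0.26 ± 0.39 and Pnrc1 at 0.75 ± 0.37. The 6 h values of Pnrc1 went with scan day. At celecoxib 1 they were -3.96 and -3.79 on day 1 and -1.14 on day 2. At 1/25 they were -5.79 on day 1 and -0.54 and -0.90 on day 2. On day 2 celecoxib 1 thus read lower, as at 24 h. Ccr9, a chemokine receptor, and Klk1c2, a kallikrein, differed by -1.11 ± 0.21 and -1.18 ± 0.23. Of the 12 named as lower, 4 were olfactory receptor genes: Or10d5jl (-1.10 ± 0.20), Or2ak6 (-0.99 ± 0.21), Or1l4 (-1.03 ± 0.22) and Or9s14 (-1.23 ± 0.25), the last with 1 value of celecoxib 1/5 missing from the fit and at -0.73 with slide as a fixed term.

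**Figure D4:**
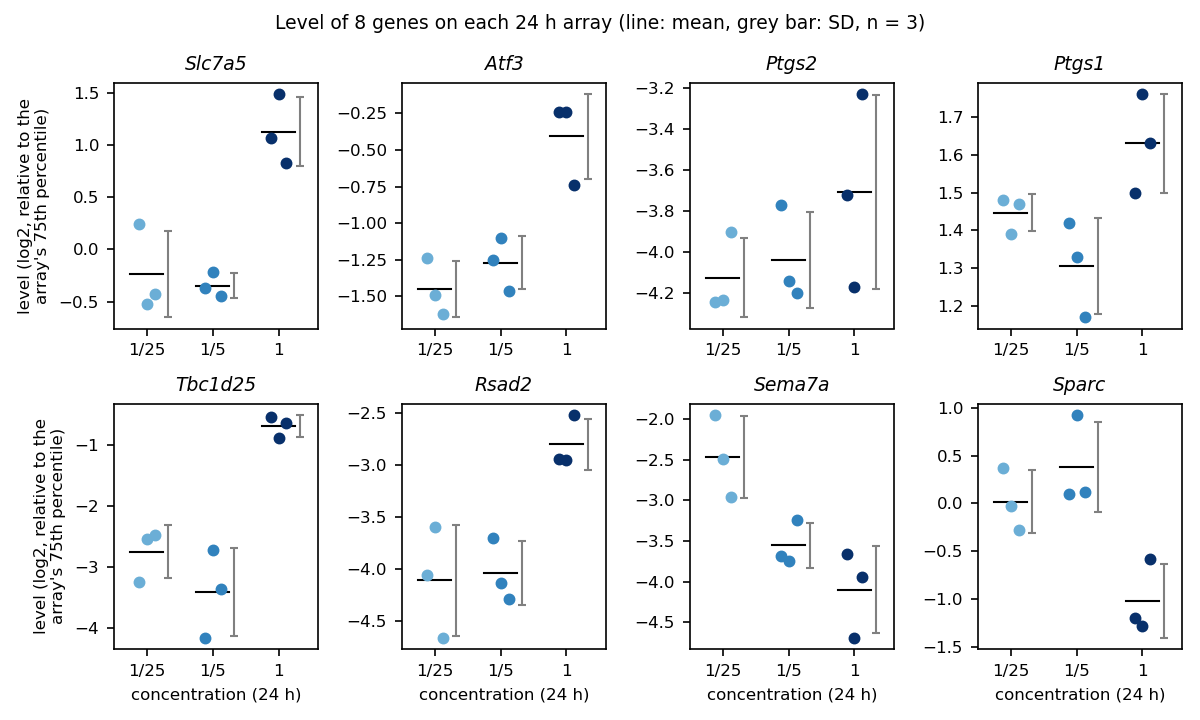
Log2 level, relative to the array's 75th percentile, of 8 genes on the 9 arrays of 24 h by concentration, with points for arrays, a line for the mean and a grey bar for the SD (n = 3). Slc7a5, Atf3, Tbc1d25 and Rsad2 stand higher at celecoxib 1 with 1/5 near 1/25, Sema7a and Sparc stand lower at celecoxib 1, and Ptgs2 overlaps.

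DNA replication genes had 19 of 27 higher (median 0.13), but 12 of 27 with slide as a fixed term (median -0.02) and 17 of 27 with normexp background correction (median 0.02). Among them were Pola1, the catalytic subunit of polymerase alpha, at 0.86 ± 0.33, Rrm2, a subunit of ribonucleotide reductase, at 0.51 ± 0.21 with 1 of its 2 probes of that sign, and Rfc4, a clamp loader subunit, at 0.38 ± 0.20. Mitosis genes had 12 of 34 higher and 22 lower (median -0.08). Kif23, a kinesin of cytokinesis, read 0.36, 0.66 and 0.90 at celecoxib 1, against 1.54, 1.29 and 1.19 at 1/25, without overlap and with a difference of -0.70 ± 0.21. Aurkb, a mitotic kinase, differed by -0.92 ± 0.40 and Top2a, a topoisomerase of dividing cells, by -0.50 ± 0.26. Aurkb was dim at celecoxib 1, with a mean of -4.5, and was well above background on 2 of 3 arrays there. At 6 h the mitosis median was 0.18, with 22 of 34 higher. The p53 targets and cell cycle inhibitors had 11 of 22 higher (median 0.01), with Cdkn2b at -0.47 ± 0.20, Bbc3, which encodes PUMA, at -0.49 ± 0.23 and Rrm2b at -0.59 ± 0.28. In the BCL2 family and caspases 14 of 24 read higher (median 0.05). Apaf1, the scaffold of the apoptosome, read 0.77, 0.08 and 0.80 at celecoxib 1, against 1.52, 1.20 and 1.64 at 1/25 (-0.90 ± 0.25), and the inhibitor Birc2 differed by 0.47 ± 0.25.

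Sarcomere genes had 15 of 22 higher, with a median of 0.14 that stayed between 0.08 and 0.20 over 23 settings, while the cardiomyocyte markers, which overlap them, had 7 of 17 higher and a median of -0.10. Replicate 1 of celecoxib 1 was low in these markers and in other bright lists. Without it, 12 of 17 cardiomyocyte markers read higher and their median was 0.10. With slide as a fixed term their median was 0.17, but that fit also sets replicate 1 aside, so it is no separate check. Myh7, the slow myosin heavy chain, read 0.61, 1.51 and 2.26 at celecoxib 1, against 2.37, 2.48 and 1.67 at 1/25 (-0.71 ± 0.40). Mybpc3, the cardiac myosin-binding protein C, differed by 0.37 ± 0.23, Myl3 by -0.48 ± 0.39 and Myom2 by 0.36 ± 0.29. Calcium handling genes and ion channels had 12 of 22 higher (median 0.03), with the potassium channel Kcnq1 at 0.56 ± 0.39, the sodium-calcium exchanger Slc8a1 at 0.37 ± 0.29 and Cacna2d1 at 0.27 ± 0.21. Hypertrophy genes and natriuretic peptides had 10 of 17 higher (median 0.02). Hand2, a transcription factor of heart development, read 1.43, 2.37 and 0.78 at celecoxib 1, against 2.40, 2.46 and 2.41 at 1/25, where it was saturated on 2 of 3 arrays. The peptide gene Nppc differed by -0.83 ± 0.33 and Ccn2, a matricellular growth factor, by -0.56 ± 0.31.

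Markers of other cells of the heart were likewise mixed. Fibroblast markers had 8 of 15 higher (median 0.02). Their summed signal was 32.7 to 47.3 at celecoxib 1, lowest on replicate 1, against 37.5 to 43.9 at 1/25. Fbln2 differed by -0.44 ± 0.24, with 1 of its 2 probes of that sign and saturation on 3 arrays of 1/25, Tcf21 by -1.19 ± 0.89 and Col3a1 by 0.47 ± 0.46. Smooth muscle markers had 5 of 11 higher (median -0.17, sums of 15.7 to 18.2 against 17.5 to 18.9), with Cspg4 at -0.62 ± 0.24, Myh11 at -0.96 ± 0.41 and Tagln at -0.36 ± 0.22. Endothelial markers had 5 of 10 higher (median 0.01, sums over 9 of them of 8.61 to 10.1 against 9.71 to 10.3), with the guidance receptor Robo4 at -0.83 ± 0.20, the junction protein Esam at 1.05 ± 0.41 and the transcription factor Sox18 at -0.76 ± 0.30, for which 1 of 2 probes had that sign.

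Macrophage and leukocyte markers had 5 of 14 higher and a median of -0.02. Their summed signals were 14.9 to 19.5 at celecoxib 1, lowest on replicate 1, against 17.3 to 18.7 at 1/25. Ptprc, the leukocyte phosphatase CD45, read -1.62, -1.39 and -1.13 at celecoxib 1, against -2.33, -1.68 and -1.84 at 1/25 (0.57 ± 0.23), whereas Aif1 differed by -0.36 ± 0.26. Cd74, the invariant chain of class II antigen presentation, was well above background on 3 of 3 arrays at celecoxib 1 and on 0 of 3 at 1/25, so only a bound of at least 1.35-fold higher can be given (adjusted p 0.605 in limma). Erythroid markers had 1 of 6 higher (median -0.14), with Epor, the erythropoietin receptor, at -0.89 ± 0.24, Ahsp at -0.34 ± 0.19 and Gata1 at 0.61 ± 0.37. Epicardial and nerve markers had 3 of 10 higher (median -0.05), with Upk3b at -0.71 ± 0.36, Krt18 at 0.22 ± 0.19 and Sox10 at -0.23 ± 0.21. The part that cell mixture has in the differences was not tested.

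In the TGF-beta list 13 of 24 genes read higher (median 0.03). The ligand gene Tgfb1 and 2 receptor genes had wide differences, with standard errors above the median of all genes (0.256). Tgfb1 read -1.15, -2.11 and -1.19 at celecoxib 1, against -5.15, -4.28 and -3.87 at 1/25. The difference of 2.95 ± 0.95 has a 95% interval of 0.83 to 5.08 and an adjusted p of 0.512 in limma, 1 of 3 arrays at 1/25 had it well above background, and the untreated arrays read -2.18 and -5.85. Tgfb1 also varied widely within a group, at -6.21, -4.77 and -1.46 on the arrays of 1/5. Its difference at 6 h was -0.98 ± 1.33. Tgfbr2 read -4.45, -0.79 and -1.66 at celecoxib 1, against -3.73, -4.64 and -4.76 at 1/25, so replicate 1 of celecoxib 1 lay with 1/25. Tgfbr1 differed by 1.00 ± 0.40. Collagens and matrix genes had 15 of 31 higher (median 0). Sparc, a collagen-binding matrix protein, read -1.2, -1.29 and -0.58 at celecoxib 1, against 0.37, -0.03 and -0.28 at 1/25, a difference of -1.04 ± 0.30 at 24 h and -1.11 ± 0.45 at 6 h. Its mean at 1/5 was 0.38, above the 0.02 of 1/25, and its groups overlap at 6 h. Col12a1 and Col6a3 differed by -0.60 ± 0.30 and -0.43 ± 0.28. Matrix metalloproteases and their inhibitors had 12 of 18 higher (median 0.07). Timp3, an inhibitor bound to matrix, read -0.04, 0.27 and 0.04 at celecoxib 1, against -1.07, -1.25 and -1.0 at 1/25, a difference of 1.2 ± 0.41 at 24 h and 2.04 ± 0.65 at 6 h. Celecoxib 1/5 read lower than both at 24 h by its mean of -2.2 (-3.26, -2.12 and -1.23). The 6 h groups of Timp3 overlap. Plaur and Mmp13 differed by 0.54 ± 0.27 and 0.39 ± 0.21.

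Inflammatory cytokines and NF-kappa-B genes had 13 of 22 higher (median 0.02), with the chemokine Ccl3 at -2.86, -2.62 and -2.10 at celecoxib 1, against -1.77, -1.79 and -1.89 at 1/25 (-0.71 ± 0.22). Il1b differed by -0.81 ± 0.40 with 1 of its 2 probes of that sign and Rel by 0.34 ± 0.24. Interferon response genes had 15 of 21 higher (median 0.11), led by Rsad2, with Irf9 at 0.63 ± 0.32 and Rig1 at -0.41 ± 0.23. Immediate early genes had 13 of 22 higher (median 0.03), with Fosl1 at 0.50 ± 0.26, Ier2 at 0.39 ± 0.25 and Nr4a1 at 0.35 ± 0.23.

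The 4 metabolic lists had medians between -0.09 and 0.02, against 0.03 for all genes. Cholesterol synthesis and lipoprotein uptake had 7 of 23 higher (30.4%, against 54.1% of all genes, median -0.09), with Fdft1 at 0.48 ± 0.35 and Dhcr7 at -0.23 ± 0.18. Fatty acid oxidation and PPAR targets had 16 of 27 higher (median 0.02), with Cpt2 at 0.42 ± 0.20, Ppara at -0.59 ± 0.30 and Cd36 at 0.72 ± 0.38. The respiratory chain and ATP synthase had 22 of 42 higher (median 0.02). Atp5mc1, a ring subunit of ATP synthase, read 0.83, 1.31 and 1.16 at celecoxib 1, against 2.30, 1.84 and 1.62 at 1/25 (-0.82 ± 0.26 at 24 h, with 1 array of 1/25 saturated, and -0.91 ± 0.33 at 6 h), while Ndufa2 differed by 0.44 ± 0.19 and Cycs by -0.34 ± 0.18 with 2 of its 3 probes of that sign. Glycolysis and hypoxia genes had 16 of 32 higher (median -0.01), with Eno3 at -0.47 ± 0.22, Eno1 at -0.40 ± 0.20 and Pfkfb3 at -0.93 ± 0.48.

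Lysosome and autophagy genes had 20 of 33 higher (median 0.07). Mcoln1, a calcium channel of lysosomes, read 0.58, 0.53 and -0.36 at celecoxib 1, against -0.56, -0.71 and -1.37 at 1/25, without overlap and with a difference of 1.13 ± 0.34, which was 0.21 with slide as a fixed term. Npc1, the lysosomal cholesterol exporter, differed by -0.40 ± 0.19 with 1 of its 2 probes of that sign. The kinase gene Ulk1 read -3.95, -3.25 and -6.01 at celecoxib 1, against -5.08, -5.54 and -6.97 at 1/25, where it was well above background on 0 of 3 arrays. Ribosomal protein genes had 24 of 55 higher (median -0.07), but without replicate 1 of celecoxib 1 41 of 55 were higher and the median was 0.14. Among them Rps12 differed by -0.78 ± 0.27, Rps7, with 1 value of celecoxib 1 missing from the fit, by 0.43 ± 0.21 and Rps9, saturated on 3 arrays of 1/25 and 0 of celecoxib 1, by -0.35 ± 0.18. Proteasome genes had 19 of 34 higher (median 0.03), with Psmc6 at -0.86 ± 0.30, Psmd6 at 0.62 ± 0.22 and Psme2 at 0.63 ± 0.25.

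Circadian clock genes had 4 of 13 higher (median -0.11), with Per1 at -0.45 ± 0.27, Nfil3 at -0.46 ± 0.28 and Per3 at 0.43 ± 0.29. At 6 h 11 of 13 read higher, with a median of 0.26. Xenobiotic genes had 3 of 9 higher (median -0.07), with Aldh3a1 at -0.95 ± 0.35, Cyp1b1 at 0.56 ± 0.32 and the transporter gene Abcb1b, with 1 value of 1/25 missing from the fit, at -0.51 ± 0.40. The carbonic anhydrases, a known second target of the drug, had 3 of 8 higher (median -0.14). Car5b, a mitochondrial form, read -2.17, -3.18 and -2.45 at celecoxib 1, against -2.06, -1.86 and -1.83 at 1/25 (-0.69 ± 0.26), whereas Car6 differed by 0.96 ± 0.43 and Car7 by 0.32 ± 0.20.

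The middle concentration gave no graded pattern over the genes. The mean of celecoxib 1/5 lay between those of 1/25 and 1 in 6858 of 25091 genes (27.3%). Against the midpoint of the other concentrations, 0 genes (0%) passed in limma (lowest adjusted p 0.15), with 2754 at an unadjusted p below 0.05 (11%). In simulated data this contrast recovered 24% of changes of 1 log2 unit, 96% of changes of 2 and 98.5% of changes of 3.

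The differences at 24 h resembled those at 6 h only weakly across genes. At 6 h 0 of 27758 genes (0%) passed between celecoxib 1 and 1/25 in limma (lowest adjusted p 0.305), with 1543 at an unadjusted p below 0.05 (5.56%). Across 25089 genes, which are not independent replicates, the 24 h and 6 h differences correlated at 0.09 (Pearson) and 0.08 (Spearman), from arrays that do not overlap. Of these genes 13303 read higher at 6 h (median 0.03). At an unadjusted p below 0.05 in limma, 1053 read higher and 354 lower. Scan day was uneven at 6 h: day 2 held replicate 3 of celecoxib 1 but replicates 2 and 3 of 1/25. The part of noise and scan day in the weak correlation was not tested. Whether the 24 h difference departed from the 6 h difference was tested in limma with scan day as a term, and 0 of 27758 genes (0%) passed (lowest adjusted p 0.39) and 1232 had an unadjusted p below 0.05 (4.44%). In simulated data this test recovered 0% of changes of 1 log2 unit, 36% of changes of 2 and 79.5% of changes of 3.

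Detection at the low end also differed between the groups. Well above background on 3 of 3 arrays at celecoxib 1 and on 0 of 3 at 1/25 were 152 genes, 76 of them with a symbol, and 10 genes showed the reverse. The share of probes detected was also lower on 2 of the 3 arrays of 1/25 than on any of celecoxib 1. For a gene not detected at 1/25 only a bound can be given, as the mean at celecoxib 1 over each 1/25 array's detection limit, meaning its dimmest detected probe or, if higher, the gene's own signal. The 3 highest bounds, picked after their values were seen, were at least 4.36-fold higher for Plxdc2 (adjusted p 0.439), at least 2.98-fold for Myrf, a transcription factor of myelination (0.292), and at least 2.23-fold for Toe1 (0.472), all in limma. Of the genes given above with a difference, Rfc4, Kcnq1, Cd36 and Tgfb1 were also detected on 1 of 3 arrays of 1/25, and Pola1, Farsb, Tgfbr2, Per3, Esam, Gata1, Pycr1 and Slc1a4 on 2 of 3.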

How the data were processed

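Each scanner file holds the linear fluorescence intensity of every spot, as deposited by the authors. Per the file headers, the images were extracted with Agilent Feature Extraction 9.5.3.1. A further file of the authors gives a linear ratio per probe and array, with column medians of 0.826 to 1.27. Its differences between arrays correlated at 0.996 or more with those of the deposited intensities, and its log2 served as an alternative. Processed signals were put on the log2 scale relative to the array's 75th percentile, outlier spots were dropped, and repeated spots were averaged. Probes entered the fit when all arrays of 1 or more of the 3 groups of 24 h had them well above background, and the brightest such probe stood for its gene. That gave 28552 probes and 25091 genes, 10680 of them with a symbol. Of 41012 probes, 10735 were named by RefSeq accession, 59 by another listed accession, 5571 by current symbol and 3729 by synonym, and 20918 kept the name in the file.

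The 9 arrays of 24 h were fitted with 1 mean per group by limma (version 3.58.1, run in R 4.3.3). Its moderated tests were two-sided, on 9.99 degrees of freedom, and p-values were adjusted over all genes by Benjamini-Hochberg. Genes with an adjusted p below 0.05 count as passing. The comparison of the times used all 20 arrays with scan day as a term. Errors are standard errors of the fit. The number of arrays limits the precision. The steps were tested on simulated data with 200 changed genes.

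The rule named, in each direction, the 12 genes of smallest p with a symbol, detected on all 6 arrays and with groups that do not overlap, since none passed. It also named the 3 members of smallest p in each of the 36 lists, and Ptgs1 and Ptgs2. Of all these, 1 gene reading lower and 1 list member are not reported here. Members of the ATF4 and tRNA synthetase lists given beyond these were picked by role after their values were seen, as was Hspa5. The comparison, lists and rules were chosen with earlier results of these data known, so no list count is independent support for a pattern.

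Alternatives were the arrays fitted, slide and replicate blocks, scaling, background correction, filter, probe choice, the authors' ratios and each array left out.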

Additional observations from a re-analysis of the deposited data

Results flagged for a closer look

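Hand2, a transcription factor of heart development, was singled out from the 127 genes picked by the naming rule. Its groups did not overlap at either time, with opposite directions. At 24 h the margin was narrow: the highest value at celecoxib 1 was 2.37 and the lowest at 1/25 was 2.40. The share of all genes with such a pattern was not counted. Opposite signs alone were not enough: Ptgs2 (0.42 at 24 h and -0.82 at 6 h) and Gpc4 (-1.11 and 0.73) also had them. For Hand2, celecoxib 1 minus 1/25 was -0.90 ± 0.33 at 24 h and 0.43 ± 0.31 at 6 h. The 24 h effect minus the 6 h effect was -1.33 ± 0.42 in log2. That difference had an unadjusted p of 0.00647 and an adjusted p of 0.994 in limma over all genes, so it did not pass. The unadjusted p comes from the same values by which the gene was picked. The probe was saturated on 2 of 3 arrays of celecoxib 1/25 at 24 h and on 0 of 3 of celecoxib 1, which compresses the level at 1/25.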

How the results depend on the processing

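The count of genes passing between celecoxib 1 and 1/25 at 24 h was 0 and stayed 0 in 10 of 13 other settings, including only the 6 arrays, slide as a random or a fixed block, normexp, no filter and the authors' table. With all 20 arrays and a term for scan day 2 passed (AA997228 and CB544780), with quantile normalization 1 (Tln2), and with the replicate number as a block 2 (Ankrd45 and AI548761). Same-numbered samples of the groups deviated together at 0, -0.11 and -0.02, and differently numbered ones at -0.12 to 0.17. With 3 arrays per group these values cannot say whether the numbers pair the samples. Leaving out 1 array gave 0 to 1 (1 without celecoxib 1/5 replicate 3, AI548761). The counts at an unadjusted p below 0.05 ran from 765, with 20 arrays and no term for scan day, to 2791, without celecoxib 1 replicate 3. For celecoxib 1/5 against the midpoint the count was 0, with 6 under the scan day fit, 0 under the replicate block and 0 to 1 without an array (1 without celecoxib 1/25 replicate 2, Rgs18). For the difference between the times it was 0, also 0 with the replicate block, and 0 to 2 without an array (2 without celecoxib 1 6 h replicate 3, Pnrc1 and Sorl1). Of the single genes named, 12 changed sign under 1 alternative each. With slide as a fixed term these were Abcb1b (0.55), Aif1 (0.18), Birc2 (-0.11), Esam (-0.04), Fdft1 (-0.11), Myom2 (-0.50), Per1 (0.04) and Pola1 (-0.17). With normexp they were Cycs (0.08) and Krt18 (-0.01), and with the mean of all probes Fbln2 (0.24) and Npc1 (0.78). The causes were not tested. Of the 127 genes picked by the naming rule, the difference moved by over 1.5 times or changed sign in 64 with slide as a fixed term, 24 with normexp, 17 with the mean of all probes and 4 with the authors' ratios, and in 0 to 24 without an array. It did so in 0 under the remaining settings. Slc7a5 ran from 1.19 to 1.60 and Tbc1d25 from 1.69 to 2.21 over all settings, while Timp3 ran from 1.11 to 2.72 and Tgfb1 from 1.85 to 6.81. Saturation limits the brightest genes and background the dimmest.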

Other observations

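Olfactory receptor genes, a family picked after 4 of its members were seen among the genes reading lower, mostly read lower at celecoxib 1 than at 1/25 after 24 h. Of 261 tested, 187 read lower (71.6%, against 45.9% of all genes), with a median difference of -0.26. At an unadjusted p below 0.05, 45 read lower and 6 higher, against 4.01% and 3.8% of all genes, and none passed the adjusted test in limma. At 6 h 67 read lower and the median was 0.28. Over the 244 measured on every array, the median level was -2.98, -3.13 and -3.02 at celecoxib 1, against -2.58, -2.83 and -2.68 at 1/25, and -2.79, -2.72 and -2.95 at 1/5. Over all 20 arrays it ran from -3.65 to -1.64, a far wider span than that between the groups of 24 h. These are dim probes, and the family was given no test of its own.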
